A study of Gallus gallus with 4 samples.

Results

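TFAP2A, TP63 and DLX5 encode transcription factors that mark the surface ectoderm, the outer cell layer of the embryo from which the epidermis forms. The 3 genes were taken by name out of 21328 genes in the count table, and all 3 had counts in every library. The chicken embryos carried no genotype or treatment in the labels and had 4, 7, 10 or 13 somites (4S, 7S, 10S and 13S). Tissue from the third somite backwards was dissociated, at least 4 embryos were pooled at each stage, and each stage gave 1 droplet library of RNA 3′ ends. No stage had a second library, so stages were not tested against each other. Each stage value has a 95% interval, by the exact Poisson method for levels and ratios or by the Clopper-Pearson method where cells are counted, and these cover counting error only.

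TFAP2A (AP-2α) switches on genes of the non-neural ectoderm and is also needed in the neural crest, the migratory population that leaves the dorsal neural tube. TP63 is required for a stratified epidermis and for its attachment to the tissue beneath. DLX5, a homeobox factor of the Distal-less family, acts in the ectoderm around the neural plate and later in the limb bud and the skeleton. BMP signals favour this non-neural ectoderm over the neural plate.

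Of 27391 cells, 25379 had at least 2500 unique molecular identifiers (UMIs, counts of single RNA molecules) and were kept, and the 2012 cells removed were all from the 7S library. The libraries held between 24490943 and 64453991 UMIs, and the 7S library had the fewest per cell, at a median of 3758 against 7182 to 8849 in the others. Of 25316 distinct cell barcodes, 63 were found in 2 or more libraries. Cells were clustered without the 3 genes, their relatives and the other ectodermal gene lists. Clusters were then named after marker genes that did not include TFAP2A, TP63 or DLX5. A named group is called "-like", and a level is given in CPM, the usual scaling of a gene's UMIs by the UMI total of its group and library, with the mean ± SD of the 4 libraries. Surface ectoderm-like cells formed 1 cluster of 1556 cells. Of the markers used for the name, the epidermal keratin KRT14 was at 112 ± 22.8 CPM and the Wnt ligand WNT6 at 127 ± 43.4 CPM. In blood island-like cells these were at 1.82 and 0.225 CPM.

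TFAP2A and TP63 lay mostly in the surface ectoderm-like cells, and DLX5 mostly outside them. Of the 2870 UMIs of TFAP2A, 71.6% came from surface ectoderm-like cells, and of the 873 UMIs of TP63, 62.4%. Of the 6440 UMIs of DLX5, 25.6% came from these cells, 21.2% from lateral plate mesoderm-like cells and 17.0% from primitive streak-like cells. For DLX5 the name surface ectoderm factor thus covered the minority of its counts in this tissue. Since the genes were chosen as surface ectoderm factors, their levels there are given as a description, without a test.

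TFAP2A stood at 166, 173, 173 and 198 CPM from 4S to 13S in surface ectoderm-like cells, a mean of 177 ± 14.2. In all other cells it came to 2.41, 5.38, 5.34 and 5.64 CPM. The second highest named class was neural-like cells at 15.1 ± 5.35 CPM, so that the surface ectoderm-like mean was 11.8 times as high. The ratio was 7.34 without Harmony integration, 8.11 at a clustering resolution of 2 and 8.98 with the unnamed cluster 29 counted as primitive streak-like. After each cell was thinned at random to 2500 UMIs to equalize depth, 34.2% of surface ectoderm-like cells (31.8% to 36.6%) held a TFAP2A UMI. Droplets also take up free RNA, so a UMI can appear without expression. In blood island-like cells, which should lack TFAP2A, 0 of 731 thinned cells had one (upper bound 0.503%). Median depths were alike, 6786.5 UMIs in the surface ectoderm-like and 6533 in the blood island-like cells.

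TP63 stood at 36.9, 62.8, 45.4 and 51.0 CPM from 4S to 13S in surface ectoderm-like cells, a mean of 49.0 ± 10.8, and at 0.954, 2.15, 1.98 and 2.50 CPM in all other cells. Its next named class, preneural-like cells, came to 3.13 ± 1.07 CPM, which was above the primitive streak-like level of 2.63 ± 1.04 CPM by less than the spread over libraries. The surface ectoderm-like mean was 15.6 times the preneural-like one. On thinned counts 11.1% of surface ectoderm-like cells (9.6% to 12.8%) and 0.137% of blood island-like cells had a TP63 UMI. In endoderm-like cells no TP63 UMI was found in any of the 4 libraries, and 0 of 600 thinned cells had one (upper bound 0.613%).

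DLX5 stood at 148, 132, 134 and 159 CPM in surface ectoderm-like cells, a mean of 143 ± 12.7. The highest other named class was primitive streak-like cells, with 75.4, 98.5, 79.0 and 66.1 CPM, a mean of 79.8 ± 13.6. The surface ectoderm-like mean was 1.80 times as high. It was 1.21 times as high at a clustering resolution of 2 and 1.37 with the listed genes kept in the clustering. With cluster 29 counted as primitive streak-like it was 1.30 times as high. Lateral plate mesoderm-like cells, at 36.3 ± 7.20 CPM, and endoderm-like cells, at 32.9 ± 17.1 CPM, followed, and these classes did not differ beyond their spread, with each the higher in 2 of 4 libraries. Below them came NMP-like cells (neuromesodermal progenitors) at 17.1 ± 4.91 CPM, then blood island-like, preneural-like, neural-like and paraxial mesoderm-like cells at means of 12.9, 10.9, 10.9 and 10.7 CPM, whose order differed between libraries. At the lower end stood somitic mesoderm-like cells at 2.29 ± 1.81 CPM, presomitic mesoderm-like cells at 1.23 ± 1.58 CPM and notochord-like cells at 0.922 ± 1.10 CPM. On thinned counts 29.6% of surface ectoderm-like cells had a DLX5 UMI, against 16.7% of primitive streak-like, 7.90% of lateral plate mesoderm-like and 7.83% of endoderm-like cells. The share in blood island-like cells was 2.87% (1.79% to 4.36%), while 0 of 945 notochord-like cells had one (upper bound 0.390%).

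**Figure D1:**
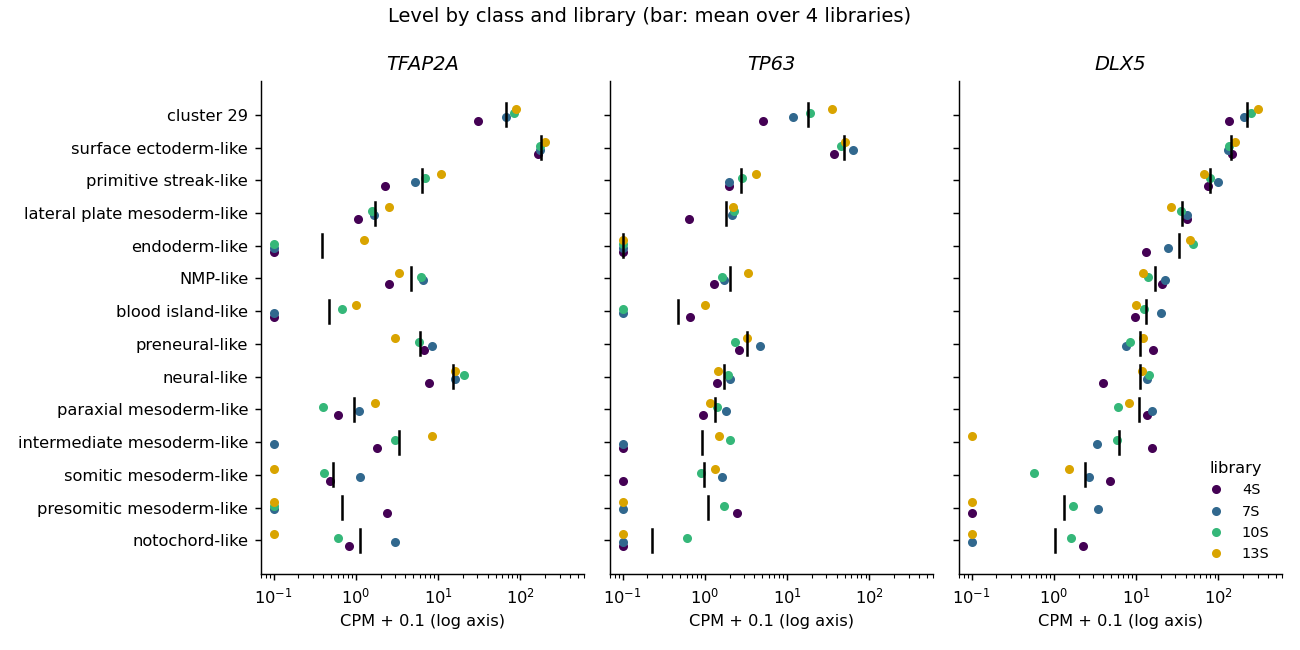
Level of TFAP2A, TP63 and DLX5 in each named class and in cluster 29 (rows), as CPM plus 0.1 on a log axis, with a point for each of the 4 libraries and a bar for their mean. TFAP2A and TP63 are highest in surface ectoderm-like cells (means 177 and 49.0 CPM), and DLX5 is highest in cluster 29 (mean 223 CPM).

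A cluster that could not be named carried all 3 genes. This cluster, number 29, held 506 cells, between 111 and 148 in each library. The mean z score of its markers was 1.464 for the primitive streak list and 1.438 for the surface ectoderm list. The paper counts a group of cells with both MESP1 and CDH1 in its surface ectoderm population. MESP1 was at 82.8 ± 73.6 CPM in cluster 29. Whether the cluster is that group was not tested, so cells counted here as outside the surface ectoderm may include some that the paper counts within it. It shared the epithelial genes CDH1 and EPCAM with the surface ectoderm-like cells (86.8 against 135 CPM and 429 against 530 CPM) and the posterior genes TBXT and WNT5A with the primitive streak-like cells (632 against 763 CPM and 342 against 304 CPM). The keratin KRT14 was at 5.01 ± 4.15 CPM there and at 2.11 ± 0.654 CPM in primitive streak-like cells. WNT6, at 11.2 ± 5.42 CPM, lay between the primitive streak-like level of 1.65 ± 0.405 CPM and the surface ectoderm-like level of 127 CPM. TFAP2A stood at 30.2, 66.8, 83.3 and 89.6 CPM from 4S to 13S in this cluster, below the surface ectoderm-like cells in every library. TP63 came to 5.03, 11.8, 19.0 and 35.2 CPM, also below them in every library. DLX5 came to 135, 203, 251 and 303 CPM, a mean of 223 ± 71.4, which was above the surface ectoderm-like level in 3 of 4 libraries and below it at 4S. The cluster held 14.0% of all DLX5 UMIs, 9.48% of those of TFAP2A and 8.13% of those of TP63. Under 3 other clusterings the most alike cluster shared between 56.9% and 90.1% of these cells, and its mean DLX5 level was 1.21 to 1.65 times that of the surface ectoderm-like cells, above it in 3 of 4 libraries each time. These values describe a cluster and were not tested.

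In the whole tissue, TFAP2A and TP63 were higher at 13S than at 4S, and DLX5 was not. TFAP2A came to 9.98, 13.9, 15.1 and 21.9 CPM of all UMIs at 4S, 7S, 10S and 13S, so that the 13S library had 2.19 times the 4S level (1.95 to 2.47). TP63 came to 2.62, 5.23, 4.50 and 6.59 CPM, a ratio of 2.51 (2.0 to 3.17), with the 10S library below the 7S one. DLX5 came to 37.5, 41.2, 32.7 and 35.5 CPM, a ratio of 0.946 (0.883 to 1.01). In counts of a whole library, more cells of a type and more RNA per cell cannot be told apart. Surface ectoderm-like cells took 4.77%, 4.86%, 5.84% and 8.43% of the cells, and within them the ratios of 13S to 4S were 1.20 for TFAP2A (1.05 to 1.37), 1.38 for TP63 (1.04 to 1.85) and 1.08 for DLX5 (0.933 to 1.25). The median mitochondrial share of UMIs was 2.43% and 2.60% at 4S and 7S, and 4.34% and 4.81% at 10S and 13S. The part that the share of surface ectoderm-like cells, the depth or the mitochondrial share had in the stage ratios was not tested.

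**Figure D2:**
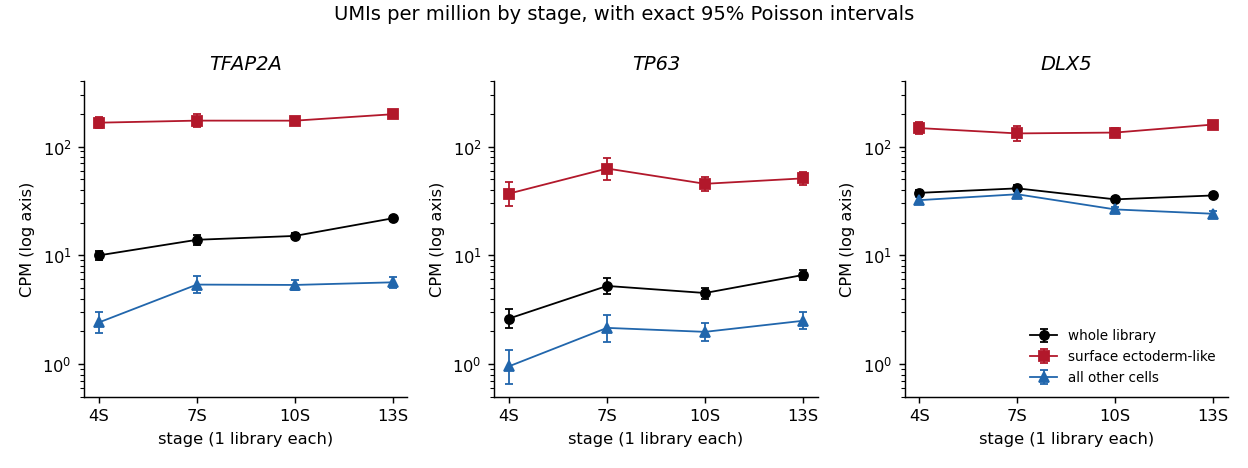
Level of TFAP2A, TP63 and DLX5 (CPM, log axis) at the 4 stages in the whole library, in surface ectoderm-like cells and in all other cells, with exact 95% Poisson intervals from 1 library per stage. The whole-library level of TFAP2A goes from 9.98 to 21.9 CPM and that of DLX5 from 37.5 to 35.5 CPM, while the surface ectoderm-like levels go from 166 to 198 and from 148 to 159 CPM.

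Outside the surface ectoderm-like cells the 13S level was 2.34 times the 4S level for TFAP2A (1.83 to 3.01), 2.62 for TP63 (1.78 to 3.95) and 0.750 for DLX5 (0.691 to 0.814). Levels outside that class, here and above, include cluster 29. DLX5 took opposite courses in different groups. In cluster 29 its 13S level was 2.24 times the 4S level (1.84 to 2.74), and the 4 libraries stood in the order of the stages. In lateral plate mesoderm-like cells it went from 41.8 and 41.5 CPM at 4S and 7S to 35.2 and then 26.5 CPM at 10S and 13S, a ratio of 0.633 (0.539 to 0.742). That class held 6 clusters with mean DLX5 levels from 6.83 to 57.2 CPM. DLX5 went from 68.8 to 41.8 CPM in cluster 3 and from 54.8 to 30.6 CPM in cluster 4, while it was at 56.4 and 51.1 CPM at 4S and 13S in cluster 10 and at 5.84 and 6.15 CPM in cluster 1. The primitive streak-like ratio was 0.877 (0.737 to 1.04), over clusters whose DLX5 levels took opposite courses. In neural-like cells DLX5 had 6 UMIs at 4S and 52 at 13S, and the ratio was 3.01 (1.29 to 8.58). TFAP2A was higher at 13S than at 4S in cluster 29 (2.97 times, 1.99 to 4.52), in primitive streak-like cells (5.03 times, 2.26 to 13.2, from 7 UMIs at 4S) and in neural-like cells (2.03 times, 1.09 to 4.11). TP63 in cluster 29 had a ratio of 7.00 (2.90 to 20.4), from 6 UMIs at 4S and 33 at 13S. With 1 library per stage the difference between the groups in these ratios was not tested.

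**Figure D3:**
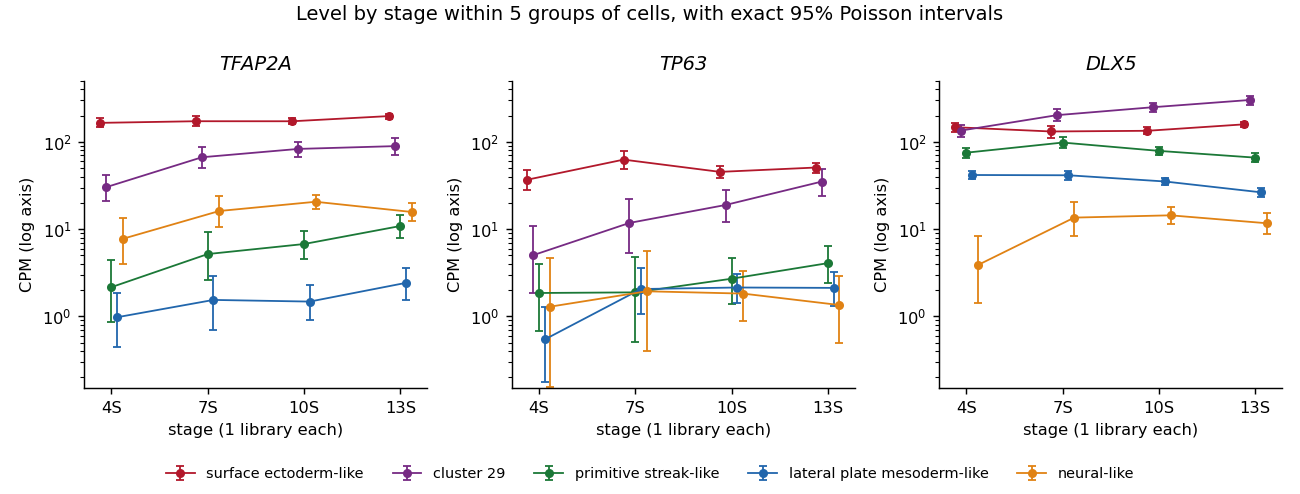
Level of TFAP2A, TP63 and DLX5 (CPM, log axis) by stage within surface ectoderm-like cells, cluster 29 and the primitive streak-like, lateral plate mesoderm-like and neural-like classes, with exact 95% Poisson intervals from 1 library per stage. DLX5 goes from 135 up to 303 CPM in cluster 29 and from 41.8 down to 26.5 CPM in lateral plate mesoderm-like cells.

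To ask whether the genes differed between tissues outside the surface ectoderm, UMIs were summed per library and class. Surface ectoderm-like and unnamed cells were left out, while the neural-like, preneural-like and floor plate-like classes stayed in. On these sums edgeR's quasi-likelihood test was run with the library as a block. Of 10937 genes tested, 74.3% differed between classes, and TFAP2A and DLX5 were among them (adjusted p = 1.87e-13 and 2.13e-18, Benjamini-Hochberg over all genes in edgeR; 1.09e-06 at most for TFAP2A and 6.58e-11 at most for DLX5 over 13 alternatives). TP63 did not pass the filter on low counts and was not tested in that fit. Without the filter its adjusted p in edgeR was 1.44e-05, in a fit where 8864 of 19634 genes differed between classes. No adjustment for free RNA was made in these sums.

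DLX5 was higher in primitive streak-like, lateral plate mesoderm-like, endoderm-like and NMP-like cells than in the mean of the other classes. That mean, here and below, is taken over the fitted log levels of the classes. Classes with levels near 0 therefore pull it below a mean taken in CPM. The NMP-like level of 17.1 CPM was above this log mean, and was not compared with a mean in CPM. The adjusted p in edgeR with Benjamini-Hochberg adjustment was 3.00e-18 for the primitive streak-like cells (11.0% of genes called higher there; 2.12e-07 at most over the alternatives), 1.37e-11 for the lateral plate mesoderm-like cells (15.2%; 9.46e-08 at most) and 2.89e-07 for the endoderm-like cells (17.1%; 0.00204 at most). For NMP-like cells, where 9.34% of genes were called higher, it was 0.0136. This call was lost without the 7S library (adjusted p in edgeR 0.0634), without the 10S library (0.0680) and without Harmony integration (0.255). The log2 differences and adjusted p of this fit depended on a single floor plate-like sum at 10S that held no UMI of DLX5 or TFAP2A. The adjusted p above, apart from the alternatives, are from the fit with that sum. The log2 differences are given from a fit without it, a choice made after seeing the data. There DLX5 was higher by 3.41 (SE 0.190) on the log2 scale in primitive streak-like cells, by 2.13 (SE 0.20) in lateral plate mesoderm-like cells, by 2.08 (SE 0.310) in endoderm-like cells and by 0.90 (SE 0.298) in NMP-like cells. In the same fit DLX5 was lower in notochord-like, presomitic mesoderm-like and somitic mesoderm-like cells (adjusted p in edgeR 5.01e-04, 0.0155 and 3.32e-04). Of 9262 genes in that fit, 1587, 733 and 1010 were called lower in these classes. The fit with the floor plate-like sum could not resolve these contrasts (adjusted p = 1 in edgeR). Each of the 3 calls was made in 3 of 13 alternatives.

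DLX5 was not evenly spread within the primitive streak-like class. Of its 3 clusters, cluster 24 with 558 cells held DLX5 at 108, 150, 185 and 168 CPM (153 ± 33.1), cluster 7 with 866 cells at 61.4, 90.9, 53.0 and 38.4 CPM (60.9 ± 22.1), and cluster 26 with 536 cells at 61.2, 51.1, 27.4 and 14.8 CPM (38.6 ± 21.3). Its level was thus higher at 13S than at 4S in cluster 24 and lower in the other clusters. Cluster 24 was the highest in each library. TFAP2A was at 14.3 ± 9.64 CPM in cluster 24, against 4.32 ± 1.60 and, from 7 UMIs, 1.49 ± 1.82 CPM in clusters 7 and 26. Surface ectoderm came second among the marker lists for cluster 24, although the list did not reach the level set for a name. The unnamed clusters 37 and 16, with 202 and 641 cells, also carried DLX5, at 71.9 ± 8.45 and 65.3 ± 12.8 CPM. Their TFAP2A levels were 4.52 ± 5.24 and 2.91 ± 1.44 CPM, from 7 and 11 UMIs. The endoderm-like cells showed the widest spread of DLX5 between libraries among the 4 highest named classes, with 13.2, 24.0, 49.0 and 45.5 CPM, and TFAP2A had 1 UMI in them over all libraries.

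Apart from the unnamed cluster 29, at 67.5 ± 26.6 CPM, TFAP2A outside the surface ectoderm was highest in neural-like cells. It stood there at 7.76, 16.2, 20.6 and 15.7 CPM from 4S to 13S. It was higher there than in the mean of the other classes by 3.54 (SE 0.280) on the log2 scale in the fit without the floor plate-like sum. The adjusted p in edgeR, with that sum in, was 9.31e-14 (14.3% of genes called higher; 2.12e-07 at most over the alternatives). TFAP2A was also higher in primitive streak-like cells (log2 difference 2.21, SE 0.328), preneural-like cells (1.91, SE 0.395; 10.6% of genes called higher) and NMP-like cells (1.63, SE 0.399). Their adjusted p in edgeR, with that sum in, was 1.66e-06, 3.38e-04 and 0.00234. The primitive streak-like call was lost without Harmony (adjusted p in edgeR 0.446) and the NMP-like call without the 10S library (0.158), while the preneural-like call held in all 13 alternatives (0.0272 at most).

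Within the neural-like class TFAP2A lay mostly in cluster 2. The dorsal neural tube genes WNT1 and PAX7 had means of 69.0 and 32.1 CPM there, against 6.24 and 15.9 CPM in cluster 14. At 4S, however, WNT1 was at 1.04 CPM in cluster 2 and at 3.45 CPM in cluster 14. PAX7 was at 13.5 and 10.3 CPM at that stage, so these genes do not mark cluster 2 as dorsal at 4S. Cluster 2, with 1102 cells, held TFAP2A at 10.4, 19.3, 32.7 and 27.8 CPM (22.5 ± 9.81). Cluster 14, with 702 cells and WNT1 at 6.24 CPM, held it at 3.45, 10.7, 2.30 and 1.48 CPM (4.48 ± 4.22), lower in each library. Neural crest cells did not form a cluster of their own. On thinned counts, 49 of 1804 neural-like cells had a UMI of SOX10 or FOXD3, factors of the early neural crest, with 0, 1, 19 and 29 such cells at 4S, 7S, 10S and 13S. On the same counts TFAP2A was found in 16 of these 49 cells (32.7%, 19.9% to 47.5%) and in 48 of the 1755 other neural-like cells (2.74%, 2.02% to 3.61%). DLX5 was found in 10 of the 49 (20.4%, 10.2% to 34.3%) and in 2.05% of the others, and TFAP2B, the AP-2β paralog that also acts in the neural crest, in 9 (18.4%, 8.76% to 32.0%) and in 0.285%. TP63 was found in 0 of the 49 cells, which allows a share of cells with a UMI, not of cells that express it, of up to 7.25%, and in 0.342% of the others. These cells were grouped after the levels had been seen, all but 1 came from the 10S and 13S libraries, and no test was run on them.

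Pairs of the 3 genes were next looked for in the same cell, on counts thinned to 2500 UMIs, and the share of cells with both was divided by the product of the single shares. Over all cells, TFAP2A and TP63 met in 76 cells. The observed share was 16.7, 8.48, 10.2 and 5.85 times the product at 4S, 7S, 10S and 13S, a mean of 10.3 ± 4.61. TFAP2A and DLX5 met in 225 cells, at 4.78, 2.61, 4.13 and 4.71 times the product, and TP63 and DLX5 in 67 cells, at 4.36, 2.64, 2.45 and 4.13 times. All 3 pairs were above 1 in 4 of 4 libraries, with p = 0.13 each in an exact sign-flip permutation test (two-sided), the smallest p that 4 libraries allow, and 0.13 after Benjamini-Hochberg adjustment over the 3 pairs. Of the cells with both genes, 88.2%, 72.0% and 74.6% were surface ectoderm-like for the 3 pairs in this order, and 7.89%, 13.3% and 11.9% lay in cluster 29.

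Within the surface ectoderm-like cells the ratios on thinned counts were closer to 1 than over all cells. TFAP2A with TP63 came to 1.48, 1.10, 1.47 and 0.803 times the product, a mean of 1.21 ± 0.327. TFAP2A with DLX5 came to 1.13, 0.893, 0.911 and 1.12 times, a mean of 1.01 ± 0.128, and TP63 with DLX5 to 1.18, 1.08, 0.869 and 0.953 times, a mean of 1.02 ± 0.137. The exact sign-flip permutation test gave p = 0.375, 0.875 and 0.875, or 0.875 for each after Benjamini-Hochberg adjustment over the 3 pairs. In this draw of the thinning the ratios lay on both sides of 1, and the distance of each mean from 1 was smaller than the SD over the libraries. With another seed of thinning the means for the 3 pairs in this order were 0.941, 0.840 and 1.08. TFAP2A with DLX5 was then above 1 in 0 of 4 libraries (0.687 to 0.958, SD 0.119). With cells thinned to 4000 UMIs the means for the 3 pairs in this order were 0.997, 1.002 and 1.011. On unthinned counts, where cells differ in depth, the means were 1.13, 1.05 and 1.07. With at least 2 UMIs of each gene, also unthinned, they were 1.88, 1.32 and 1.67. Both ways without thinning gave ratios above 1 in 4 of 4 libraries. The part that unequal depth had in these higher ratios was not tested. Of the 1556 surface ectoderm-like cells, 41.6% held none of the 3 genes, 43.4% held 1, 13.5% held 2 and 1.48% held all 3, where the product of the shares gave 1.12% for all 3. Cells with all 3 numbered 25, of which 23 were surface ectoderm-like and 2 were in cluster 29. A cell without a UMI at this depth may still express a gene.

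**Figure D4:**
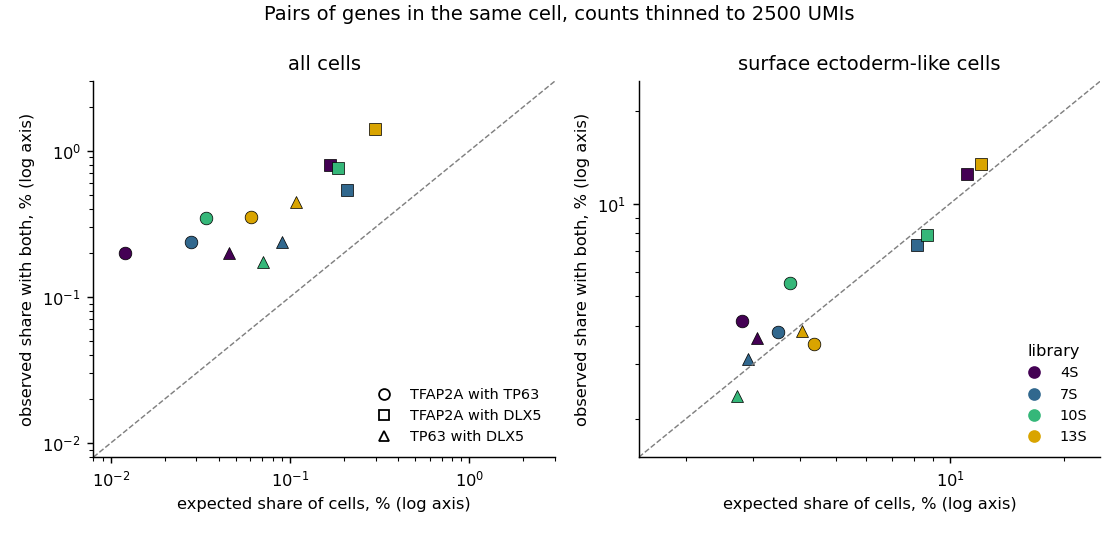
Observed share of cells with both genes of a pair against the product of the single shares, in percent on log axes, for all cells (left) and surface ectoderm-like cells (right), with colours for the 4 libraries, shapes for the 3 pairs and a dashed line where both are equal. All points lie above the line for all cells (2.45 to 16.7 times the product) and on both sides of it for surface ectoderm-like cells (0.803 to 1.48 times).

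Among the cells outside the surface ectoderm-like class and cluster 29, no cell of 23317 held all 3 genes, where the product of the shares gave 1.46e-04%. At so low a share, a count of 0 in these cells cannot be read as a result. TFAP2A and DLX5 met in 33 of them, above the product in 4 of 4 libraries, with ratios of 2.11, 1.96, 5.57 and 4.87 (exact sign-flip permutation p = 0.13). Of these 33 cells, 11 were primitive streak-like, 10 neural-like and 6 lateral plate mesoderm-like. TFAP2A and TP63 met in 3 cells and TP63 and DLX5 in 9 of them, counts too low for a ratio in each library to be read.

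To see what went with each gene inside the surface ectoderm, surface ectoderm-like cells with at least 1 UMI of the gene were summed per library and compared with those without, on thinned counts and with edgeR as above. Neither of the 2 other genes passed the test between cells with and without TFAP2A, where 3 of 5276 genes did (0.0569%), between cells with and without TP63, where 6 of 4340 did (0.138%), or between cells with and without DLX5, where 9 of 4912 did (0.183%). TP63 stood at 57.4, 47.6, 75.8 and 47.2 CPM in cells with TFAP2A and at 26.8, 48.0, 36.2 and 69.3 CPM in cells without it, higher in 2 of 4 libraries (log2 difference 0.25, SE 0.224, adjusted p = 0.942 in edgeR). DLX5 in cells with TFAP2A against cells without it differed by 0.08 (SE 0.130) and TFAP2A in cells with DLX5 by 0.10 (SE 0.134) on the log2 scale. Cells with and without TP63 differed by 0.15 (SE 0.177) for TFAP2A and by -0.12 (SE 0.196) for DLX5. The lowest adjusted p of these contrasts in edgeR was 0.942. On unthinned counts, where deeper cells are more often counted as having a gene, TFAP2A was higher in cells with DLX5 (log2 difference 0.31, adjusted p = 0.0390 in edgeR).

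In the split by DLX5, cells with a UMI of it had more MSX2 and KRT18 than cells without one. MSX2, a homeobox factor downstream of BMP, was at 123, 47.2, 156 and 233 CPM in cells with DLX5 and at 56.3, 31.8, 92.9 and 109 CPM in cells without it, higher in 4 of 4 libraries (log2 difference 0.94, SE 0.160, adjusted p = 2.42e-04 in edgeR; up to 1.00 over the alternatives). KRT18, a keratin of simple epithelia, was at 982, 613, 1158 and 1933 CPM against 719, 499, 1091 and 1100 CPM, also higher in 4 of 4 (0.46, SE 0.0725, adjusted p = 9.18e-05 in edgeR; up to 1.00 over the alternatives). Its call held in 7 of 11 alternatives, with log2 differences from 0.09 to 0.61, and was lost with unthinned counts. MSX1 (0.42, SE 0.0964) and KRT7 (0.48, SE 0.0764) were higher in 3 of 4 libraries, and GREB1, MT4 and RPS23 in 4 of 4. The calls of GREB1, MT4 and RPS23 held in 6, 8 and 3 of 11 alternatives. CRABP-I, a retinoic acid-binding protein, was lower in cells with DLX5 in 4 of 4 libraries (-1.89, SE 0.386). It was at 11.7, 5.24, 6.77 and 16.8 CPM against 15.6, 29.9, 31.7 and 65.5 CPM. This call held in 5 of 9 alternatives, with log2 differences from -2.075 to -0.32, and was lost with unthinned counts and with another seed. SPINK5, a protease inhibitor of the epidermis, was lower in cells with DLX5 in 3 of 4 libraries (-0.77, SE 0.134). Without the 13S library 2 genes were left, MSX2 came to 0.80 (adjusted p = 0.459 in edgeR) and KRT18 to 0.23 (0.677), and without the 4S library 15 genes were called.

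In the split by TP63, where another seed of thinning lost the call, KRT18 went the other way. It was at 555, 409, 947 and 998 CPM in cells with TP63 and at 860, 562, 1158 and 1471 CPM in cells without it, lower in 4 of 4 libraries (log2 difference -0.46, SE 0.0913, adjusted p = 9.72e-04 in edgeR; up to 1.00 over the alternatives). The chemokine CXCL12 (0.43, SE 0.107) and TIMM44 (0.49, SE 0.118), part of the mitochondrial import machinery, were higher and PPIA (-0.15, SE 0.0367) lower in cells with TP63 in 4 of 4 libraries. The calls of CXCL12, TIMM44 and PPIA held in 3, 2 and 4 of 11 alternatives, and each was lost with another seed of thinning. S100A6 was lower in 3 of 4 (-0.69, SE 0.170). The unnamed gene ENSGALG00000007526 was lower in 4 of 4 (-2.37, SE 0.452), with UMIs in 2 of the 4 sums of cells with TP63, so that its fitted size depends on the prior count. Leaving out the 4S, the 10S or the 13S library left 0 genes called by edgeR, with 293, 237 and 240 genes at an unadjusted p under 0.05. TP63 split the cells least evenly, with 17, 32, 55 and 69 cells that had it at 4S, 7S, 10S and 13S.

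Cells with TFAP2A had less FIBIN, a secreted protein gene, at 38.3, 17.3, 83.1 and 85.9 CPM against 56.6, 40.0, 140 and 192 CPM in cells without it, lower in 4 of 4 libraries (log2 difference -0.96, SE 0.175, adjusted p = 9.66e-05 in edgeR; up to 1.00 over the alternatives). The FIBIN call was lost with another seed of thinning. The growth factor MDK was lower in 3 of 4 libraries by a small amount (-0.17, SE 0.0382). ENSGALG00000007526, the third gene called, was higher in 2 and lower in 2 libraries. Without the 10S library 1 gene was called, and without the 13S library 0 were, with 215 at an unadjusted p under 0.05 in edgeR. DESeq2 called 0 genes in each of the 3 splits, with 16, 55 and 29 genes at an unadjusted p under 0.05 for TFAP2A, TP63 and DLX5, where edgeR had 295, 279 and 300.

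**Figure D5:**
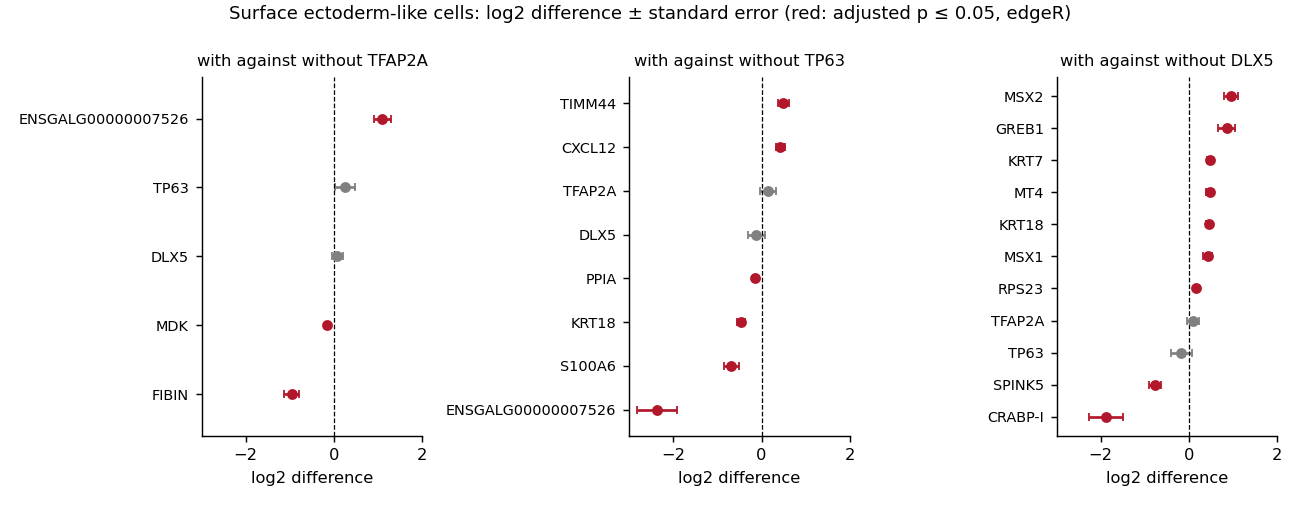
Log2 difference (± standard error) between surface ectoderm-like cells with and without TFAP2A (left), TP63 (middle) and DLX5 (right), over 4 libraries, for genes past an adjusted p of 0.05 in edgeR (red) and for the other 2 of the 3 genes (grey). KRT18 lies at 0.46 for DLX5 and at -0.46 for TP63, and the grey points lie near 0.

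Of the relatives of the 3 genes, TFAP2B, TFAP2C and TFAP2E were higher in surface ectoderm-like cells than in the other cells, as TFAP2A was. Genes were read as higher in surface ectoderm-like cells where the level was at least 2-fold that of all other cells in each of the 4 libraries, which held for 3.27% of 13169 genes with at least 50 UMIs. The reverse, at least 2-fold lower in each library, held for 6.68% of them. Of 8 relatives with enough UMIs, 5 were higher and 1 lower, with no test. The minimum counted all cells, so a gene could pass it through the surface ectoderm-like cells, here and in the lists below. TFAP2C and TFAP2E, with 41 and 21 UMIs in the other cells, passed in this way, so the count of 5 depends in part on the minimum. TFAP2D had 3 UMIs, all outside the surface ectoderm-like cells. TFAP2C, an AP-2 factor of trophoblast and ectoderm, stood at 10.4, 11.3, 17.1 and 19.7 CPM in surface ectoderm-like cells and at a mean of 0.215 CPM elsewhere. TFAP2B was higher at each stage than at the one before, at 1.15, 5.63, 8.55 and 13.3 CPM from 102 UMIs in all, and TFAP2E came to 3.13 ± 1.70 CPM from 43 UMIs. DLX6, which lies beside DLX5 on the chromosome (RefSeq, GRCg7b), stood at 13.9, 8.05, 6.14 and 4.37 CPM, lower at each stage than at the one before, where DLX5 had 148, 132, 134 and 159 CPM. DLX3, a Distal-less factor of the epidermis, came to 9.76 ± 4.42 CPM in surface ectoderm-like cells and to 4.19, 18.3, 19.0 and 39.5 CPM in cluster 29, where it was above the surface ectoderm-like level in 3 of 4 libraries, as DLX5 was. DLX2 was lower in surface ectoderm-like cells (0.600 against 1.91 CPM). TP73, the paralog of TP63, was higher in 3 of 4 libraries, at 2.12 ± 2.01 CPM from 33 UMIs.

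Among other genes of the ectoderm, 8 of 10 regulators met the same rule, with a median ratio of 7.16 against 0.928 over all genes. They included GRHL3, a factor of epidermal barrier formation, at 55.0 ± 25.8 against 2.69 ± 0.516 CPM. GRHL3 was lower at each stage than at the one before (86.6, 59.5, 49.95 and 24.1 CPM). Of 12 adhesion and keratin genes, 6 met the rule, among them the desmosomal DSP at 150 ± 70.6 CPM. The regulators OVOL2 and ZNF750 and the adhesion list's RIPK4 had 47, 44 and 23 UMIs in the other cells. They passed the minimum through the surface ectoderm-like cells, so the counts and medians of these lists depend in part on it. Of 11 genes of the neural plate border and placodes 0 were higher and 2 lower (DACH1 and ZIC1), of 12 genes of BMP signalling 2 were higher (BMP7 and ID3) and 2 lower (the antagonists NOG and CHRD), and of 7 neural genes 0 were higher and 2 lower (SOX1 and CDH2). The medians of these 4 lists were 3.04, 0.755, 0.665 and 0.213.

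The genes most alike in level to each of the 3 were read from the Pearson correlation of log2(CPM + 1) over 53 sums of named classes and libraries, among 7948 genes with a mean of at least 5 CPM. The sums share libraries and cell types, so the coefficients describe these sums and have no p. TP63 and TFAP2A were most like each other among the 3 genes (r = 0.889), and TFAP2A was the gene most like TP63 of all, while TP63 was itself under the minimum with a mean of 4.86 CPM. DLX5 had r = 0.548 with TFAP2A and 0.563 with TP63. The next most like TP63 were WNT6 (0.865), ENSGALG00000044225 (0.779), the keratin KRT17 (0.759) and FABP3 (0.742). For TFAP2A the highest 5 were WNT6 (0.872), ENSGALG00000044225 (0.781), FABP7 (0.747), the protease ASTL (0.743) and KRT17 (0.742). WNT6 and KRT17 had been used to name the surface ectoderm-like cluster. The minimum of 5 CPM counted the surface ectoderm-like sums, so a gene could pass it through them. TFAP2A, WNT6, ASTL, KRT17 and ENSGALG00000044225 had means of 16.4, 10.7, 10.1, 6.57 and 5.68 CPM over the sums. In surface ectoderm-like cells they stood at 177, 127, 112, 65.5 and 48.6 CPM. Their place in these lists thus depends in part on that class. For DLX5 the list was another one, led by MSX2 (0.860). It also held LSS (0.810), an enzyme of cholesterol synthesis, ATIC (0.809), an enzyme of purine synthesis, and GSTT1 (0.792).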

How the data were processed

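Single cells of chick trunk tissue were sequenced as 1 droplet library for each of 4 stages. The authors aligned reads with Cell Ranger 4.0.0 to GRCg6a, and the deposited values are UMI counts per gene and cell on exons and introns (DropEst), not normalized, for cells the authors had filtered by mitochondrial share, total and Scrublet score. Every library was held to at least 2500 UMIs and at most 7.5% mitochondrial UMIs per cell, and 25379 cells with 180511900 UMIs were kept. At this depth a class of few cells gives few UMIs, so low levels are imprecise.

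Clustering followed the published steps (normalization to 10000 counts leaving out genes above 1% of a cell, 1200 variable genes, 40 components, Harmony, 10 neighbours, Leiden at resolution 3.5), with scanpy 1.11.5 and Harmony rewritten in numpy 2.4.6. Left out were 48 listed genes. Leiden returned 40 clusters. The name of a cluster was that of the marker list with the highest mean z score (at least 1, with 3 markers found in at least 10% of cells, and no lead of another list among its top 10 genes), thresholds chosen after a first clustering was seen. It left 7 clusters with 2654 cells unnamed. Of 83 listed genes, 67 were found by name. Doublets were not called again, apart from an alternative that left out 209 cells with a Scrublet score above 0.25.

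Sums per class (at least 20 cells each) and per split (no minimum) were tested with edgeR 4.0.16 (glmQLFit, glmQLFTest, TMM, filterByExpr, library as a block, Benjamini-Hochberg at 0.05), checked on simulated counts. DESeq2 1.42.0 was an alternative. Others were no filter, no block, each library left out, resolution 2, listed genes kept in the clustering, no Harmony, a Scrublet limit, other depths and seeds of thinning, other scales and subtraction of the blood island-like level. Leaving out the floor plate-like sum, counting cluster 29 as primitive streak-like and leaving out libraries for class levels were added after seeing the data. Named were the 3 genes, their relatives, list genes past adjusted p 0.05 in a split (up to 5 per list and direction), the 5 largest rises and falls per split of 1 direction in all libraries, and the 5 genes most alike in level to each. Other called genes, and the genes given in the account of lists, markers and neural crest, were chosen after their values were seen. Some genes that these rules name are not reported here. The 3 genes and all lists were chosen with earlier results of these data known. The labels do not separate embryos within a stage, so p-values measure the spread between these 4 libraries, which differ in stage.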

Additional observations from a re-analysis of the deposited data

Results flagged for a closer look

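Within 4 libraries of a group, 1 library stood apart from the other 3 in 2 of 33 groups looked at, where chance alone would set apart about 1 in 20. TFAP2A in endoderm-like cells was at 1.17 CPM at 13S, from 1 UMI, and at 0 in the other libraries. TP63 in lateral plate mesoderm-like cells was at 0.543 CPM at 4S, from 5 UMIs, and between 2.06 and 2.14 CPM at 7S, 10S and 13S.

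The change of DLX5 from 4S to 13S differed in direction between groups of cells, a difference that was not tested because each stage had 1 library. The ratio of 13S to 4S was 2.24 in cluster 29 and 3.01 in neural-like cells, and it was 0.633 in lateral plate mesoderm-like cells, and none of these 95% intervals included 1.

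The 2012 cells of the 7S library below 2500 UMIs took no part in the comparisons and also held all 3 genes. TFAP2A came to 11.9 CPM in them from 48 UMIs (13.9 CPM in the 7S cells kept), TP63 to 6.44 CPM from 26 UMIs (5.23 CPM) and DLX5 to 36.1 CPM from 146 UMIs (41.2 CPM).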

How the results depend on the processing

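No paired analysis was possible because each stage has only replicate 1, so the groups share fewer than 2 replicate numbers. Of 542 alternatives over 51 results, 390 kept the direction and the side of the threshold, 98 lost the call, 1 gained it, 35 moved a value and 18 reversed it. The cause was not tested where a value moved. The 8 contrasts between classes outside the surface ectoderm kept their call in 99 of 104 alternatives. The calls of single genes between surface ectoderm-like cells with and without a gene were lost in 93 of 194. Within surface ectoderm-like cells the 13S to 4S ratio was 1.20 for TFAP2A (whole library 2.19), 1.38 for TP63 (2.51) and 1.08 for DLX5 (0.946). The ratio of the surface ectoderm-like level to the highest other class was 18.8 for TP63 and 1.21 for DLX5 at resolution 2, and 8.55 and 1.30 with cluster 29 counted as primitive streak-like. Subtracting the blood island-like level gave DLX5 130.4 CPM in place of 143. Genes called between cells with and without TFAP2A, TP63 and DLX5 numbered 3, 6 and 9 in edgeR. DESeq2 and edgeR without the library block gave 0 each, with 16, 55 and 29 genes in DESeq2 and 53, 84 and 66 in edgeR at an unadjusted p under 0.05. Unthinned counts gave 158, 49 and 83 genes. Without the filter on low counts there were 15 genes for TFAP2A and 132 for TP63, with another seed of thinning 7 and 1, and with the Scrublet limit 16 for DLX5. Leaving out a library gave 0 to 3 genes for TFAP2A, 0 to 6 for TP63 and 2 to 15 for DLX5. With another seed the log2 difference between cells with and without TFAP2A reversed for ENSGALG00000007526 (-0.76), TP63 (-0.052) and DLX5 (-0.26). That of TFAP2A reversed for cells with TP63 (-0.089, and -0.018 without the filter) and with DLX5 (-0.22), and unthinned counts gave 0.31 for the last. Unthinned counts reversed DLX5 in cells with TP63 (0.016) and TP63 in cells with DLX5 (0.14). Leaving out a library gave -0.13 to 0.74 for TP63 and -0.13 to 0.20 for DLX5 in cells with TFAP2A, and for TFAP2A -0.17 to 0.51 in cells with TP63 and -0.12 to 0.21 in cells with DLX5. With at least 2 UMIs of each gene, unthinned, the pairs TFAP2A with TP63, TFAP2A with DLX5 and TP63 with DLX5 met 23.2, 6.60 and 7.05 times as often as the product over all cells, and 1.88, 1.32 and 1.67 times in surface ectoderm-like cells. In those cells TFAP2A with TP63 was below 1 at 4000 UMIs (0.997) and with another seed (0.941), and TFAP2A with DLX5 with another seed (0.840). Leaving out a library gave 0.974 to 1.05 for TFAP2A with DLX5 and 0.966 to 1.07 for TP63 with DLX5. Thinning to 4000 UMIs left out 3334 cells of the 7S library, which limits what can be read there.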
